A study of Bos taurus and Capra hircus with 9 samples.

Results

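The miR-15/16 pairs were followed in the miRNomes of milk-derived extracellular vesicles (EVs), small membrane vesicles that carry RNA in milk. Members were the rows named bta-miR-15a, bta-miR-15b, bta-miR-16a or bta-miR-16b, or miR-195, miR-497 or miR-424 with or without an arm suffix, and 5 of the 296 listed bta-miRNA entries met this rule. They were miR-15a, miR-15b, miR-16a, miR-16b and miR-424-3p, and no row named miR-195 or miR-497 was among those used here. Each entry is a bovine miRBase name with its mature sequence, and its level is given in TPM, a tag number scaled by the authors to a total that is not specified and written as a whole number.

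The animals were 4 primiparous Alpine goats (goat 17, goat 44, goat 79 and goat 127) at 26 ± 9 days postpartum and 5 Holstein Friesian cows (cow 1, cow 2, cow 3, cow 20 and cow 62) at 30 ± 7 days postpartum. There was 1 library per animal, made from EVs of skimmed milk depleted of cells, and no animal received a treatment. Species cannot be told apart from breed, farm and the additional acetic acid step applied to goat milk only, because each differs between the groups as a whole. Goat tags were also counted on bovine entries, and goat miRNA sequences were not analysed here. The listed entries added up to 239233 to 406336 TPM in goats and 267316 to 420029 TPM in cows, and read numbers are stated in the paper only as averages by species. The epithelial miRNA miR-200a was abundant in every library of both species, at 9042 to 14083 TPM in goats and 11711 to 16814 TPM in cows.

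A miRNA guides an Argonaute protein to messenger RNAs, mainly through its seed, the bases 2 to 8 counted from the 5′ end. miR-15 and miR-16 share a seed and are made from neighbouring hairpins of the same primary transcript, at a pair of loci on different chromosomes. In human and mouse cells they repress the apoptosis inhibitor BCL2 and cyclins of the cell cycle, and the miR-15a/16 locus is often deleted in human chronic lymphocytic leukaemia. miR-16 is abundant in blood cells.

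In the RefSeq annotation of the ARS-UCD2.0 bovine assembly, MIR15A lay beside MIR16A, within a transcribed pseudogene, and MIR15B lay beside MIR16B, within SMC4, the gene of a condensin subunit that compacts chromosomes. The names of the entries thus followed the loci, and miR-15a was compared with miR-16a and miR-15b with miR-16b. MIR195 and MIR497 lay beside each other at another locus, and MIR424 beside MIR503.

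The mature sequences of the table are shown because the same seed is read from entries of very different level, and because miR-16a and miR-16b are nearly identical. The bases are given 5′ to 3′ as DNA letters, with the seed in capitals:
miR-15a: tAGCAGCAcataatggtttgt
miR-16a: tAGCAGCAcgtaaatattggtg
miR-15b: tAGCAGCAcatcatggtttaca
miR-16b: tAGCAGCAcgtaaatattggc
miR-424-3p: cAAAACGTgaggcgctgctat

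The seed AGCAGCA stood at bases 2 to 8 in 4 of the 296 listed entries, which were the miR-15 and miR-16 entries. miR-16a and miR-16b shared their first 20 bases. They differed by the substitution T21C, with the miR-16a base first and positions counted from the 5′ end, and by the extra last base of miR-16a. miR-15a and miR-15b shared their first 11 bases and differed by A12C, G20A and T21C, with the miR-15a base first, and by the extra last base of miR-15b. Within a genomic pair the first 9 bases were the same, and 5 bases differed between miR-15a and miR-16a over their common length, against 7 between miR-15b and miR-16b. miR-424-3p comes from the arm opposite to the one that carries this seed, and its own seed is another one.

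miR-16a was far more abundant in goat milk-derived EVs than in those of cows. bta-miR-16a was at 460, 555, 907 and 247 TPM in goats 17, 44, 79 and 127, and at 68, 80, 48, 45 and 73 TPM in cows 1, 2, 3, 20 and 62. Every goat was above every cow, and goats differed among themselves more than cows did. The mean was 542 ± 275 TPM over the 4 goats and 62.8 ± 15.5 TPM over the 5 cows (± SD), a ratio of means of 8.63. On the log2(TPM + 1) scale the difference of goat minus cow was 2.98 (standard error 0.34, adjusted p = 1.98e-06, limma). Its rank among the listed entries was 38 to 52 in goats and 80 to 83 in cows.

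The entry miR-16b, named for the other locus, differed even more between the species. Tags that end before base 21 match miR-16a and miR-16b alike, so the 2 entries may not be separate measurements. bta-miR-16b was at 451, 536, 911 and 256 TPM in goats 17, 44, 79 and 127, and at 27, 26, 17, 21 and 37 TPM in cows 1, 2, 3, 20 and 62. The lowest goat stood well above the highest cow. The mean was 538.5 ± 275 TPM over the 4 goats and 25.6 ± 7.54 TPM over the 5 cows (± SD), a ratio of means of 21.0, and the log2 difference was 4.24 (standard error 0.35, adjusted p = 5.35e-08, limma). Its rank was 37 to 50 in goats and 96 to 113 in cows.

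miR-15a and miR-15b, which are transcribed together with them, were at low levels in both species. bta-miR-15a was at 2, 2, 4 and 1 TPM in goats 17, 44, 79 and 127, and at 2, 5, 1, 1 and 5 TPM in cows 1, 2, 3, 20 and 62. The ranges overlapped, with means of 2.25 ± 1.26 TPM over the 4 goats and 2.80 ± 2.05 TPM over the 5 cows (± SD). The log2 difference was -0.13 (95% interval -0.98 to 0.73, adjusted p = 0.793, limma). bta-miR-15b was at 4, 2, 8 and 1 TPM in the same goats, and at 2, 1, 1, 1 and 3 TPM in the same cows. Goats 17 and 79 were above every cow and goat 127 was level with the lowest cows. Its means were 3.75 ± 3.10 TPM over the 4 goats and 1.60 ± 0.89 TPM over the 5 cows (± SD), and the log2 difference was 0.70 (95% interval -0.16 to 1.56, adjusted p = 0.144, limma). Neither miR-15 entry passed the test, and these intervals do not exclude a difference of either sign. Values this low are coarse, since a TPM written as 1 can stand for anything from 0.5 to 1.5. With whole-number rounding taken to its extreme in favour of goats, a shift of 0.5 TPM up in goats and down in cows, miR-15b passed the test (log2 difference 1.23, adjusted p = 0.0134, limma), and it also passed without goat 127 (1.04, adjusted p = 0.0491, limma).

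**Figure D1:**
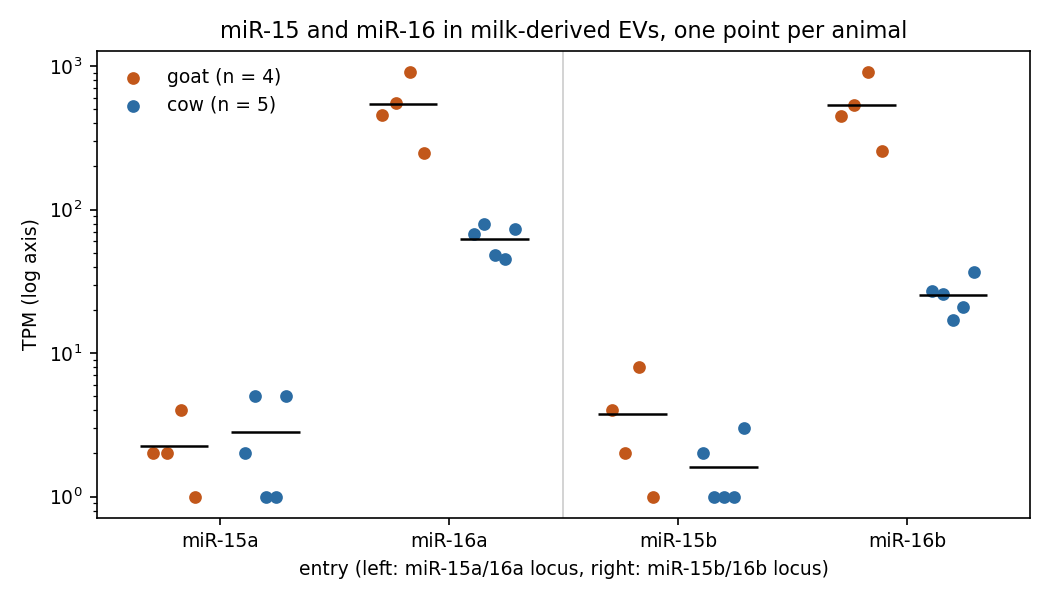
TPM of miR-15a, miR-16a, miR-15b and miR-16b on a log axis, with 1 point per animal, goats in orange and cows in blue, and the mean as a black line. The miR-16a and miR-16b points of the 4 goats, from 247 to 911 TPM, lie above those of the 5 cows, from 17 to 80 TPM, while the miR-15a and miR-15b points of both species lie between 1 and 8 TPM.

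All 4 of these entries passed the filter on low values, above 1 TPM in at least 4 libraries. miR-16a and miR-16b did so in all 9 libraries, miR-15a in 3 goats and 3 cows, and miR-15b in 3 goats and 2 cows. Of the 4, 2 were higher in goats and 0 were lower. Over all 217 entries tested, 61.3% differed, with 37.3% higher in goats and 24% lower. No overlap between the species was found for 51.2% of entries, and 30.9% were higher in goats without overlap, as miR-16a and miR-16b were. Differences between these species were thus common in the table, and the sizes were less so. Of the tested entries, 17.1% were higher in goats by at least the difference of miR-16a and 7.83% by at least that of miR-16b. Entries lower in goats by as much are not in these shares. The median difference over all tested entries was 0.24 on the log2 scale, and it was -0.075 without goat 17 and -0.15 without goat 79, when fewer entries passed the filter.

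**Figure D2:**
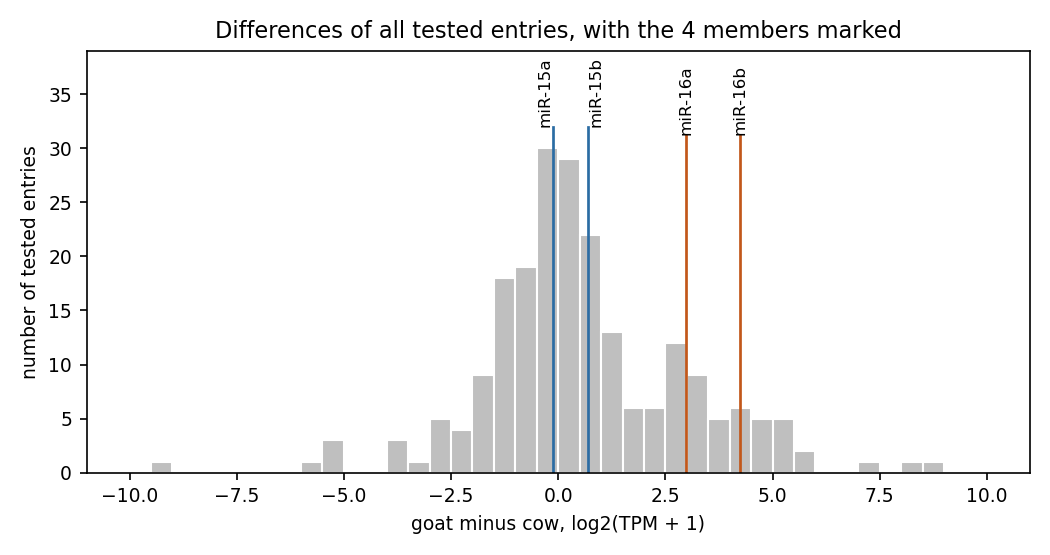
Histogram of the goat minus cow difference on the log2(TPM + 1) scale for the 217 tested entries, with vertical lines at the 4 members. miR-15a (-0.13) and miR-15b (0.70) fall in the central peak, and miR-16a (2.98) and miR-16b (4.24) fall in the right-hand part.

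miR-424-3p, from the passenger side of a hairpin whose other arm belongs to the same seed family in human, was listed at 0, 1, 0 and 0 TPM in goats 17, 44, 79 and 127, and at 1, 1, 1, 0 and 0 TPM in cows 1, 2, 3, 20 and 62. It did not pass the filter. With no filter its log2 difference was -0.35 (95% interval -1.07 to 0.37, adjusted p = 0.369, limma), so it did not pass the test either.

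The 4 seed-sharing entries together held 0.226%, 0.430%, 0.495% and 0.211% of the listed TPM in goats 17, 44, 79 and 127, and 0.0236%, 0.0274%, 0.0239%, 0.0254% and 0.0386% in cows 1, 2, 3, 20 and 62. The mean share was 0.340 ± 0.143% over the 4 goats and 0.0278 ± 0.0062% over the 5 cows (± SD), given without a test because the entries were chosen together. Nearly all of it was miR-16, which made up 99.3% to 99.6% of the 4 entries in goats and 93.2% to 97.1% in cows. A vesicle preparation of either species thus carried this seed mainly as miR-16, and the goat preparations carried it at a higher level. If miR-16a and miR-16b share tags, these shares count such tags on both entries.

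The comparison within a pair asks whether the products of the same locus kept their proportion between the species. The scaling of a library cancels in a ratio of 2 of its entries, except for the 1 TPM added to each before the test, which weighs on entries as low as miR-15. In the miR-15a/16a pair, miR-16a exceeded miR-15a by 230, 277.5, 226.75 and 247 times in goats 17, 44, 79 and 127, and by 34, 16, 48, 45 and 14.6 times in cows 1, 2, 3, 20 and 62. The proportion in goats was outside the range of the cows in every animal. The mean log2 ratio of miR-15a over miR-16a, with 1 TPM added to each, was -7.31 ± 0.27 over the 4 goats and -4.21 ± 0.48 over the 5 cows (± SD). The difference of goat minus cow was -3.11 (standard error 0.31, adjusted p = 1.99e-06, limma over all pairs of tested entries).

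The miR-15b/16b pair gave the same direction, though miR-16a and miR-16b may share tags and the pairs may then not be independent. miR-16b exceeded miR-15b by 112.75, 268, 113.9 and 256 times in goats 17, 44, 79 and 127, and by 13.5, 26, 17, 21 and 12.3 times in cows 1, 2, 3, 20 and 62. Again no goat fell within the cow range. Goats 44 and 127 had the most unequal pairs, with miR-15b written as only 2 and 1 TPM, so the size of these ratios is coarse. The mean log2 ratio was -6.91 ± 0.44 over the 4 goats and -3.37 ± 0.24 over the 5 cows (± SD), a difference of -3.54 (standard error 0.29, adjusted p = 3.66e-07, limma over all pairs). For each genomic pair the two-sided exact permutation test over the 9 animals gave p = 0.00794, the smallest it can give. In all 9 animals miR-16 was above the miR-15 of its own locus. With the rounding of miR-15 taken to its extremes the differences ran from -3.60 to -2.61 for miR-15a/16a and from -4.04 to -3.01 for miR-15b/16b, and each still passed.

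Crossed pairs, which take the miR-15 of one locus and the miR-16 of the other, behaved alike. The log2 ratio of miR-15a over miR-16b differed by -4.37 (standard error 0.32, adjusted p = 1.31e-07, limma over all pairs), and that of miR-15b over miR-16a by -2.28 (standard error 0.32, adjusted p = 4.05e-05, limma over all pairs). Each of these differences is that of the miR-15 entry minus that of the miR-16 entry, for instance -0.13 for miR-15a and 4.24 for miR-16b. The miR-15a over miR-15b ratio did not pass, at -0.83 (95% interval -1.68 to 0.02, adjusted p = 0.0720, limma over all pairs). miR-15b was above miR-15a in goats 17 and 79 and level with it in goats 44 and 127. It was level with miR-15a in cows 1, 3 and 20 and below it in cows 2 and 62.

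**Figure D3:**
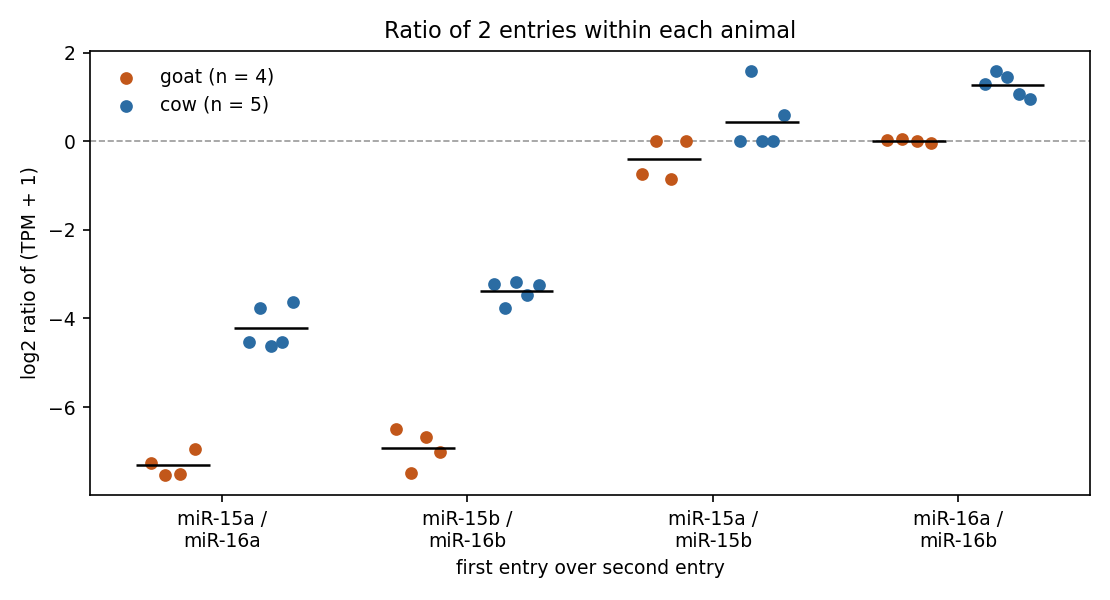
Log2 ratio of (TPM + 1) of 2 entries within each animal, goats in orange and cows in blue, with the mean as a black line and a dashed line at equal levels. Goats lie below cows without overlap for miR-15a over miR-16a, miR-15b over miR-16b and miR-16a over miR-16b, and overlap with them for miR-15a over miR-15b.

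Ratios that differ between the species were the rule in this table. Over all 23436 pairs of tested entries, 74.3% had a ratio that passed the same test, and 65.2% had no overlap between goats and cows. Pairs whose genes lie within 10 kb of each other in the bovine annotation differed less, with 50% of 150 pairs passing and 42% not overlapping. Both miR-15/16 pairs passed and did not overlap, and by size the miR-15b/16b pair was the third and the miR-15a/16a pair the seventh among the 150 neighbouring pairs. Only 2% of the neighbouring pairs had a difference at least that of miR-15b/16b, and 4.67% at least that of miR-15a/16a, against 28% and 33.5% of all pairs. The median size of the difference was 0.75 on the log2 scale for neighbouring pairs and 2.02 for all pairs. Neighbouring pairs share entries and are not independent, and their strand is not given in the annotation table used here.

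**Figure D4:**
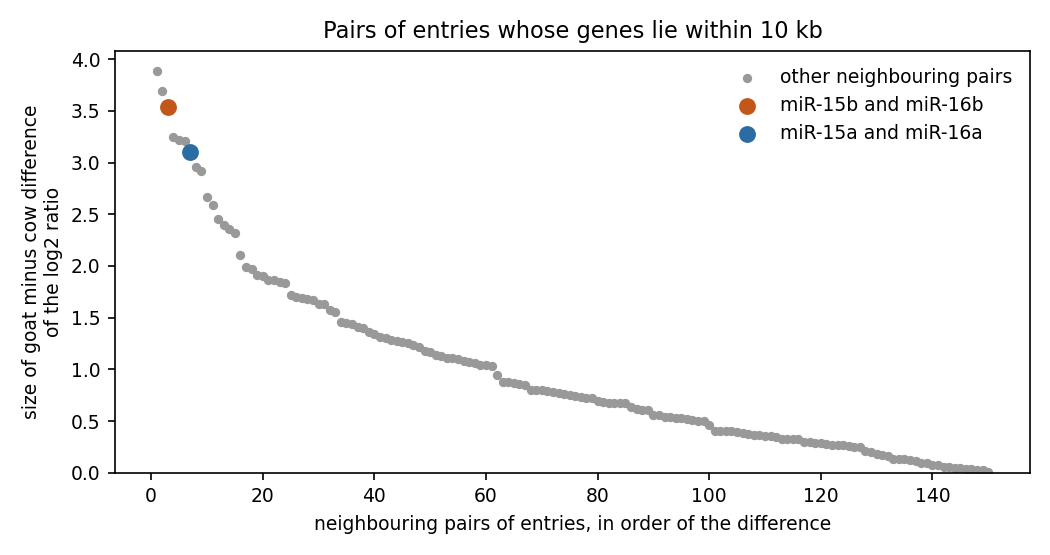
Size of the goat minus cow difference of the log2 ratio for the 150 pairs of tested entries whose genes lie within 10 kb, in falling order. The miR-15b/16b pair (3.54, orange) is the third and the miR-15a/16a pair (3.11, blue) the seventh of the 150.

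The entries miR-16a and miR-16b, named for different loci, stood in another proportion in each species. They are told apart only from base 21 of the bovine sequences, and goat sequences were not analysed here. miR-16b was at 0.980, 0.966, 1.00 and 1.04 times the level of miR-16a in goats 17, 44, 79 and 127, and at 0.397, 0.325, 0.354, 0.467 and 0.507 times that level in cows 1, 2, 3, 20 and 62. In goats the levels were thus nearly equal although they ranged from 247 to 911 TPM between animals, and in cows miR-16a was the higher in all 5. As a share of both together, miR-16b made up 49.9 ± 0.77% over the 4 goats and 28.9 ± 3.8% over the 5 cows (± SD). The log2 ratio of miR-16a over miR-16b was 0.01 ± 0.04 in goats and 1.27 ± 0.26 in cows, a difference of -1.27 (standard error 0.26, adjusted p = 0.00072, limma over all pairs). The two-sided exact permutation test over the 9 animals gave p = 0.00794.

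The proportion of miR-16a and miR-16b varied little between goats. Among 6903 pairs of entries with a mean of at least 10 TPM in each species, 12 had a smaller spread of the log2 ratio over the 4 goats than miR-16a and miR-16b had (SD 0.04, against a median of 0.45). In cows 22.3% of these pairs had a smaller spread than theirs (SD 0.26, against a median of 0.38). Of the 5 pairs of tested entries that share at least their first 20 bases, a set chosen after the values were seen, the others did not stand at equal levels in goats. miR-146a was at 0.00547 to 0.00596 times miR-146b in goats and 0.00901 to 0.0571 times in cows. miR-378c was at 0.0491 to 0.0550 times miR-378 in goats and 0.0373 to 0.0681 times in cows. miR-107 was at 0.0225 to 0.0359 times miR-103 in goats and 0.0276 to 0.0654 times in cows. miR-339b was at 0.344 to 0.465 times miR-339a in goats and 0.648 to 1.06 times in cows. The spread of the log2 ratio over goats was small as well for miR-146b and miR-146a (SD 0.058) and for miR-378 and miR-378c (SD 0.076). Whether tags that end before base 21, and so match miR-16a and miR-16b equally, were counted on both was not tested. With miR-16a and miR-16b summed into 1 entry, goats had 911, 1091, 1818 and 503 TPM and cows 95, 106, 65, 66 and 110 TPM, and the log2 difference was 3.49 (standard error 0.34, adjusted p = 3.06e-07, limma). Any tag counted on both entries enters this sum from both, so the sum cannot settle that question.

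The wider group to which miR-15 and miR-16 belong holds other miRNAs with the same letters near the 5′ end. Of the list miR-103, miR-107, miR-195, miR-322, miR-424, miR-497, miR-503 and miR-646, the entries miR-103, miR-107 and miR-424-3p were listed, and miR-103 and miR-107 were tested. They carry the letters AGCAGCA from base 1 in place of base 2, which shifts their seed, and are shown with those letters in capitals:
miR-103: AGCAGCAttgtacagggctatga
miR-107: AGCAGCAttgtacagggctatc

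miR-103 and miR-107, which lie in introns of pantothenate kinase genes and act on lipid and glucose metabolism in mouse, had log2 differences below those of both miR-16 entries. miR-103 was at 1575, 1493, 2175 and 2003 TPM in goats 17, 44, 79 and 127, and at 1195, 1326, 673, 873 and 762 TPM in cows 1, 2, 3, 20 and 62. It was higher in goats without overlap, with a log2 difference of 0.94 (standard error 0.26, adjusted p = 0.00545, limma). miR-107 was at 43, 37, 49 and 72 TPM in goats and at 33, 81, 44, 44 and 38 TPM in cows, and did not pass (log2 difference 0.09, 95% interval -0.57 to 0.76, adjusted p = 0.808, limma). In each animal miR-103 was the most abundant entry of the group. Its mean was 1812 TPM beside 542 TPM for miR-16a in goats, and 966 TPM beside 62.8 TPM for miR-16a in cows.

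Markers of blood cells were examined beside miR-16, which these cells hold in large amounts. Of the 6 leukocyte markers listed, 5 were tested and all 5 were higher in goats, as were 37.3% of all 217 tested entries. Of these, miR-142-5p, miR-223 and miR-150 were above 1 TPM in too few cows to pass the filter without the goats. The summed level of the 6 markers was 366 to 1131 TPM in goats and 16 to 49 TPM in cows. Among goats, the order of miR-16a was the order of the leukocyte markers miR-142-5p, at 47, 179, 316 and 14 TPM in goats 17, 44, 79 and 127, and miR-223, at 92, 140, 409 and 16 TPM. Goat 79 was the highest and goat 127 the lowest for these markers, for miR-16a and for miR-16b. The other 3 tested leukocyte markers did not follow this order. They were miR-155, a miRNA of activated lymphocytes and macrophages, at 813, 218, 302 and 273 TPM in the same goats, miR-342 at 104, 44, 79 and 61 TPM, and miR-150 at 8, 2, 9 and 2 TPM. In cows miR-142-5p stood at 0 to 6 TPM and miR-223 at 0 to 3 TPM, with both at 0 in cows 2 and 3, where miR-16a was at 80 and 48 TPM. The part of leukocyte RNA in the miR-16 difference was not tested.

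Erythroid markers were scarce. miR-451, which is made in red blood cells in large amounts, was at 0, 0, 26 and 3 TPM in goats 17, 44, 79 and 127, and at 2, 1, 0, 0 and 0 TPM in cows 1, 2, 3, 20 and 62. miR-486 was at 1, 3, 11 and 1 TPM in goats and 8, 1, 0, 1 and 0 TPM in cows. The summed level of the 2 markers listed of 3 was 1 to 37 TPM in goats and 0 to 10 TPM in cows, and in goats 17 and 44 miR-451 was listed at 0 while miR-16a stood at 460 and 555 TPM. Without goat 79, which carried the highest erythroid level, the log2 difference was 2.68 for miR-16a and 3.94 for miR-16b. The part of red blood cell RNA in these differences was not tested. Of the 7 mammary epithelial markers, 1 (miR-205) was higher in goats, having passed the filter through goats alone, 1 (miR-141) was lower, and their sum was 88054 to 173405 TPM in goats and 128915 to 202963 TPM in cows. Of 3 endothelial and stromal markers, 2 were tested. miR-143 was higher in goats, at 423, 275, 301 and 216 TPM in goats 17, 44, 79 and 127 and at 14 to 25 TPM in cows. miR-126-3p leaned the other way and did not pass (log2 difference -0.92, adjusted p = 0.144, limma). miR-145, at 1 to 2 TPM in goats and 0 TPM in cows, was not tested. The summed level was 217 to 425 TPM in goats, nearly all of it miR-143, and 19 to 30 TPM in cows. In EVs of skimmed milk, fewer vesicles from a cell type and less RNA per vesicle cannot be told apart.

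**Figure D5:**
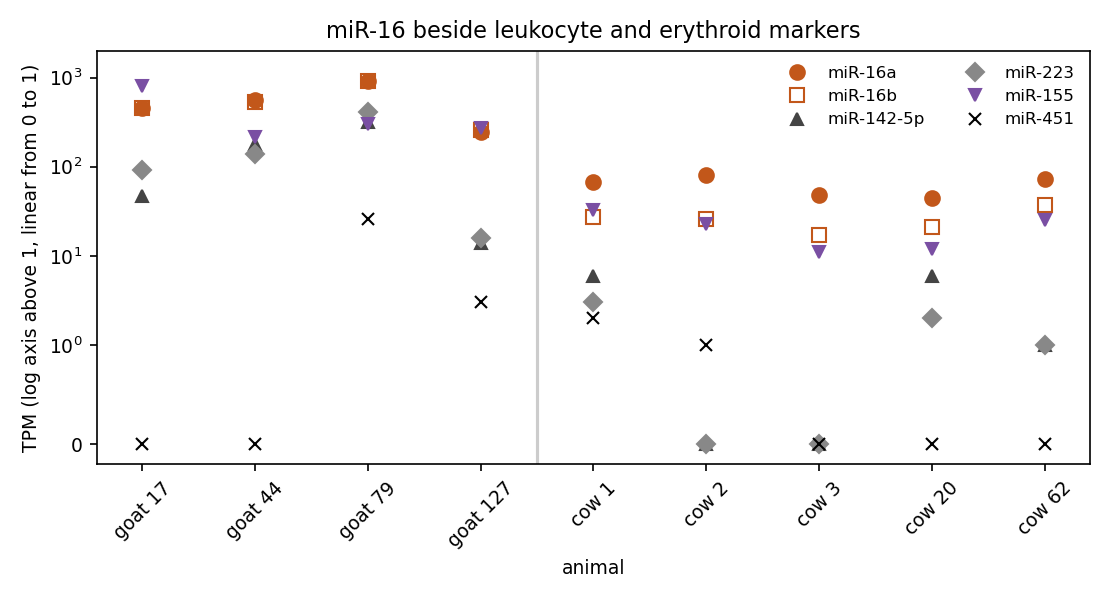
TPM of miR-16a and miR-16b (orange) with the leukocyte markers miR-142-5p, miR-223 and miR-155 and the erythroid marker miR-451 in each of the 9 animals, goats left of cows, on an axis that is logarithmic above 1 TPM and linear from 0 to 1 TPM. miR-16a, miR-16b, miR-142-5p and miR-223 are highest in goat 79 and lowest in goat 127 among goats, and miR-451 is at 0 in goats 17 and 44.

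The entries whose levels moved most like those of a member were sought over the 9 animals after removing the species mean of log2(TPM + 1), among entries with a mean of at least 10 TPM in each species. miR-16a was closest to miR-16b (Pearson r = 0.94), miR-361 (0.93) and let-7d (0.93), and miR-16b to miR-361 (0.96), miR-16a (0.94) and miR-93 (0.90). miR-15a was closest to miR-362-5p (0.92), miR-361 (0.90) and miR-19a (0.87), and miR-15b to miR-28 (0.92), miR-652 (0.92) and miR-24-3p (0.90). The miR-16 of the same locus came close behind, since miR-16a was eighth of 118 entries for miR-15a (r = 0.82) and miR-16b seventh of 118 for miR-15b (r = 0.88). These values describe 9 libraries and are the highest of 117 or 118 entries each. Without goat 79 they were 0.84 to 0.94. The species means were still those over all goats, so a difference between species can enter these r values. Deviations within a library are shared by its entries, and the median r over the entries compared was 0.49 to 0.60. miR-15a and miR-15b were themselves whole numbers of 1 to 5 and 1 to 8 TPM with ties, so their r values rest on few rounded steps.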

How the data were processed

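Small RNA libraries of milk-derived EVs from 4 goats and 5 cows were prepared with a NEBNext kit and sequenced on an Illumina instrument by the authors. The authors trimmed adapters, mapped the reads with Bos taurus as reference for both species, and counted them on miRBase 20 entries, with an aligner and a genome build not given in the sources used here. Each deposited score is a TPM that the authors rounded to a whole number, and the paper states read numbers only as averages by species. As the total behind the TPM is not specified, no counting interval was computed. Species came from the sample titles, and each animal was a replicate.

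Values were tested as log2(TPM + 1) with limma 3.58.1 in R 4.3.3, with a variance trend, for those 217 entries that exceeded 1 TPM in 4 or more libraries. Ratios of 2 entries were tested with limma without a trend over all 23436 pairs, which are not independent. P-values were adjusted by Benjamini-Hochberg with a threshold of 0.05. The fits were first tested on artificial data with known changes. Neighbouring genes came from RefSeq (ARS-UCD2.0), where 294 of the 296 entries matched, and sequences from the deposited table. Members, lists and tests were chosen with earlier results of these data known. Named entries are all members, the listed entries of the wider group, the markers and the 3 entries most like each member, while miR-146a, miR-146b, miR-339a, miR-339b, miR-378 and miR-378c were chosen after their values were seen.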

Additional observations from a re-analysis of the deposited data

Results flagged for a closer look

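The 4 seed-sharing entries held 0.0386% of the listed TPM in cow 62, far from the other cows, which lay between 0.0236% and 0.0274%. This was the only such sample among 22 sets of 4 or 5 animals examined, where chance gives about 1 in 20.

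The proportion of the entries differed between goats and cows by the test of the difference itself (limma over all pairs). The log2 ratio, goat minus cow, was -3.11 for miR-15a/miR-16a, -3.54 for miR-15b/miR-16b, -4.37 for miR-15a/miR-16b, -2.28 for miR-15b/miR-16a and -1.27 for miR-16a/miR-16b. These ratios share entries and are not independent, and 74.3% of all pairs of tested entries passed the same test.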

How the results depend on the processing

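The calls of miR-16a and miR-16b were kept in all 21 alternatives each (log2 difference 2.68 to 3.49 and 3.49 to 4.55), and those of both genomic pairs in all 16 each. The alternatives were other pseudocounts, filters, scalings and variance trends, the exact permutation test, and the 9 runs with a single animal left out. They also held the rounding extremes and, for the single entries, the sum of miR-16a and miR-16b, both chosen after seeing the data. The rounding extremes shift miR-15 only, so they cannot move the differences of miR-16a and miR-16b. The sum is made of these same miR-16 entries, so it is not a separate check of them. The genomic pairs were not run under other scalings, and gave no value at the minimum of 10 TPM. With a single animal left out, the differences ran from 2.68 to 3.31 for miR-16a, from 3.94 to 4.55 for miR-16b, from -3.23 to -2.96 for miR-15a/16a and from -3.68 to -3.35 for miR-15b/16b. The uncalled difference of miR-15a ran from -0.36 to 0.080 and that of miR-107 from -0.092 to 0.30, so their sign is not known, and miR-15b ran from 0.32 to 1.04. With miR-15 raised in goats and lowered in cows by the rounding limit, miR-15a was at 0.37 and miR-15b at 1.23, the second past the threshold. At a minimum of 10 TPM in 4 libraries the miR-15 entries gave no value, and 84 of all entries were called in place of 133, since fewer were tested. The higher calls over all entries were 81, and 48 at that minimum. They were 44 without goat 17, 51 without goat 44, 46 without goat 79 and 64 without goat 127. With a goat left out, 186 to 188 entries were tested in place of 217. The filter then dropped any entry above 1 TPM in goats alone. Without miR-148a in the total, the mean share of the 4 entries in cows was 0.0437% in place of 0.0278%. In goats it was 0.464% in place of 0.340%. No paired analysis was possible because no animal number occurs in both species. Whole-number TPM limit the precision of miR-15a, miR-15b and miR-424-3p, and no read number per library was at hand.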
